A study of Arabidopsis thaliana with 30 samples.

Results

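The comparison described here asks whether a change of day length altered leaf transcripts of a catalase mutant differently from those of the wild type, after 2 days in ordinary air. It is the interaction of genotype and day length: the long-day minus short-day difference in cat2, minus the same difference in Col0. Its members are 12 of the 30 arrays of the series, 3 from each of 4 groups, chosen by group and day alone and not by any measured value. All 4 groups were five-week-old Arabidopsis thaliana plants raised in soil over 5 weeks in air enriched to 3000 ppm CO2 with short days (8 h of light), then moved to air of 400 ppm CO2 for 2 days. The groups were Col0 kept in short days (Col0-SD2), Col0 moved to long days of 16 h light (Col0-LD2), cat2 kept in short days (cat2-SD2) and cat2 moved to long days (cat2-LD2). Rosette leaves were taken 7 h into the light in every group. Each array (Affymetrix ATH1, a chip on which a gene is read by a set of short probes) held RNA of 2 leaves from different plants, pooled, and the 3 arrays of a group are biological replicates. Long days at 3000 ppm were not among the conditions, so day length was varied only in plants that had also changed air.

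Catalase in leaf peroxisomes removes the hydrogen peroxide that photorespiration releases when Rubisco fixes oxygen in place of CO2. CAT2 codes for the main leaf catalase, and cat2 mutants (cat2-1 per the series' design text) grow much like the wild type at high CO2, where photorespiration is low, and carry an oxidative load in air. Day length is known to change how such mutants respond to that load. Heat shock proteins and other chaperones, which keep proteins folded, glutathione transferases and UDP-glycosyltransferases, which attach glutathione or sugars to small molecules, and calcium sensor proteins are among the plant genes known to answer hydrogen peroxide.

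CAT2 had 0 probe sets of its own in the annotation used, so the mutation could not be checked on the transcript itself. AT3G55920 (a cyclophilin-type peptidyl-prolyl isomerase), picked because its level differed between the labelled genotypes, read 7.02 to 7.49 on the log2 scale in the 6 cat2 arrays and 4.06 to 4.55 in the 6 Col0 arrays, which describes that gene and does not check the labels. Of the marker lists for cell types, only 1 gene of 6 for leaf mesophyll was measured, RCA (Rubisco activase), together with 1 of 4 for root and 1 of 5 for flower and pollen. The log2 mean over all arrays was 14.1 for RCA, 3.73 for the root gene PYK10 and 4.06 for the pollen gene AT5G45880. The first principal component of the 12 arrays (41.5% of the variance) set the cat2-SD2 arrays apart at −47.4, −47.0 and −29.6. The second component (22.4%) set the Col0-SD2 arrays apart at 31.9, 30.7 and 36.2, with every other array negative. On the third component (13.2%) Col0-LD2 replicate 1 stood apart at 33.7. Because whole leaves were measured, fewer cells of a type and less RNA per cell cannot be told apart in any value below.

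Values are log2 signals, so a difference of 1 is a doubling of the signal, and an interaction of −1 means that the long-day to short-day ratio in cat2 was lower by that factor than in Col0. Of 22746 probe sets tested with limma, 1755 (7.72%) had an interaction at an adjusted p below 0.05, 940 positive (4.13%) and 815 negative (3.58%). At an unadjusted p below 0.05 there were 4917. Of the called positive probe sets 569 and of the negative 369 belonged to exactly 1 annotated gene. Negative interactions were larger: their median size was 0.963 against 0.706 for the positive, and 106 of the negative exceeded 2 against 2 of the positive.

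The count depended on which arrays entered. It was 939 without Col0-LD2 replicate 1, 994 without cat2-SD2 replicate 1, 1069 without cat2-LD2 replicate 2, 1099 without cat2-SD2 replicate 2 and 1164 without Col0-SD2 replicate 2, and between 1234 and 1738 without any other of the 12.

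The 4 simple differences that make up the interaction share its arrays and are given as descriptions. Between long and short days 3668 probe sets (16.1%) were called in cat2 and 2676 (11.8%) in Col0, where 1387 rose (6.1%). Between the genotypes 3225 (14.2%) were called in short days, 1505 of them higher in cat2 (6.62%), and 261 (1.15%) in long days. For the negative set the median long-minus-short difference was −0.623 in cat2 and 0.333 in Col0, and the median cat2-minus-Col0 difference was 0.768 in short days and −0.189 in long days. For the positive set these medians were 0.433, −0.276, −0.469 and 0.244 in the same order.

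The called sets were chosen by the interaction in these same arrays, so the group orders that follow are partly built in and are descriptions only. A negative call favours cat2-SD2 or Col0-LD2 at the top and Col0-SD2 or cat2-LD2 at the bottom, and a positive call the reverse. Which group of a pair stood at the end was not set by the call. By group mean, cat2-SD2 was the highest of the 4 groups in 646 of the 815 negative probe sets (79.3%, against 23% of all). It was the lowest in 767 of the 940 positive ones (81.6%, against 38.2% of all). All 3 cat2-SD2 arrays lay above the other 9 in 441 of the 815 negative probe sets (54.1%), and in 5.17% of all probe sets. They lay below the other 9 in 352 of the 940 positive ones (37.4%), and in 6.59% of all. Col0-SD2 stood at the opposite end next most often, below the other 9 in 233 negative probe sets (4.16% of all) and above them in 225 positive ones (4.48% of all). Long-day cat2 was alone at the top in 143 positive probe sets (2.33% of all) and alone at the bottom in 54 negative ones (1.7% of all). Long-day Col0 was alone at the top in 50 negative probe sets (2.69% of all) and at the bottom in 40 positive ones (1.86% of all).

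**Figure D1:**
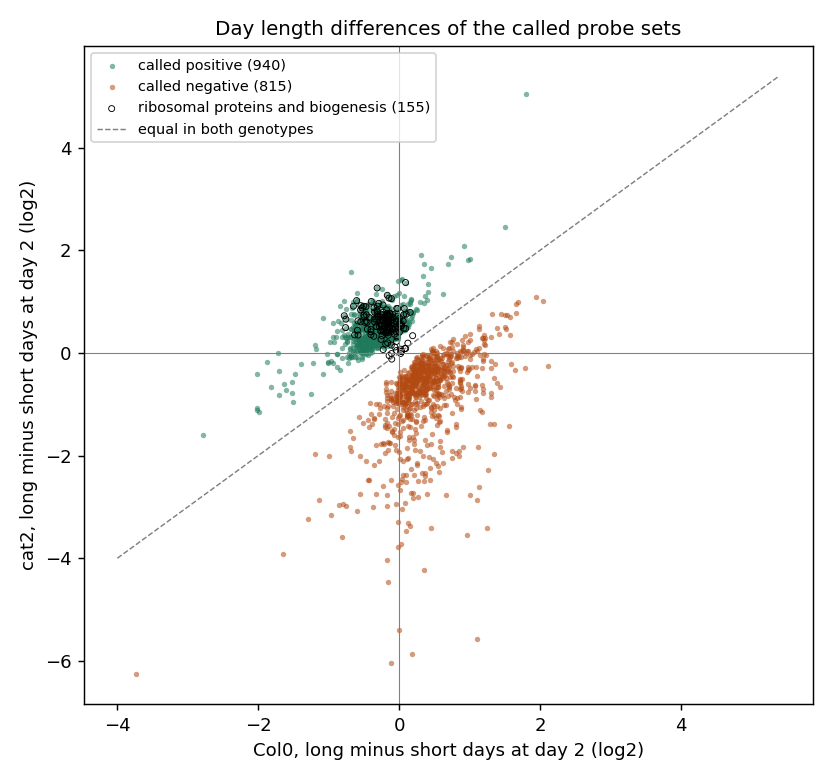
Long-minus-short-day difference at day 2 in Col0 (x axis, log2) against the same in cat2 (y axis, log2) for the 940 positive and 815 negative called probe sets, with the 155 probe sets of the ribosomal lists ringed. The distance from the dashed line of equal difference is the interaction itself, and the orange points reach further from it, 106 of them by more than 2.

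Chaperones and their helpers made up 5 of the 12 single-gene probe sets with the largest negative interactions. The leading named gene was AT5G51440, a mitochondrial small heat shock protein. Its log2 signal was 10.66, 10.57 and 9.86 in cat2-SD2, against 4.34, 4.1 and 4.51 in cat2-LD2, 4.33, 4.52 and 4.27 in Col0-SD2, and 4.43, 4.13 and 4.21 in Col0-LD2. Only the cat2-SD2 arrays were raised, and the other 3 groups overlapped one another. The interaction was −5.93 ± 0.25 (SE, 3 arrays a group, adjusted p = 1.71e-13, limma with Benjamini-Hochberg adjustment). The deposited values carry no detection call, so whether the 9 low arrays stood above background was not tested, and no fold is given. A further pair of small heat shock proteins of the cytosolic class, AT2G29500 and AT1G53540, had interactions of −2.79 ± 0.45 and −2.44 ± 0.44 (adjusted p = 3.52e-04 and 0.00103). Of the 7 small heat shock proteins measured 3 were called negative (3.58% of all probe sets were) and 1 positive (4.13% of all). Their median was −0.52 against 0.03 over all probe sets. The positive member was AT4G21870 (0.83 ± 0.25, adjusted p = 0.0433), whose signal was highest in cat2-LD2, at 7.21, 7.30 and 7.05, and 5.76 to 6.25 in Col0-LD2, with both short-day groups between 4.82 and 5.71. The 3 members that were not called, the peroxisomal AT5G37670, the endoplasmic reticulum protein ATHSP22.0 and AT1G52560, had interactions of −0.52, −0.03 and −0.07.

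Of 16 listed large chaperones and co-chaperones 6 were measured. All 6 were called negative (3.58% of all probe sets were), with a median of −3.01, and all 6 were called without any one of the 12 arrays. This list, like the others used here, was written with earlier results of these data known, so its count is a description. AT5G48570, the FKBP-type co-chaperone ROF2, read 9.42, 8.59 and 8.47 in cat2-SD2, 4.90, 4.2 and 4.71 in cat2-LD2, 5.64, 5.02 and 5.06 in Col0-SD2, and 6.15, 5.44 and 5.20 in Col0-LD2. The cat2-SD2 arrays were apart from the rest, cat2-LD2 was the lowest group, and the Col0 groups overlapped. Its interaction was −4.58 ± 0.57 (adjusted p = 1.41e-05). Fes1A, a nucleotide exchange factor that works with HSP70, read 11.08, 10.98 and 10.40 in cat2-SD2 and between 6.88 and 7.71 in the other 9 arrays, with an interaction of −3.77 ± 0.24 (adjusted p = 5.09e-10). The DnaJ-type co-chaperone AT2G20560 (−3.03 ± 0.35) and Hop3, which links HSP70 and HSP90 (−3.0 ± 0.36), also had the cat2-SD2 arrays alone on top. Hop3 had a mean of 3.96 over all arrays, and whether its low arrays stood above background was not tested. AT3G09440, a cytosolic HSP70 that is abundant in unstressed leaves, moved by less (−1.51 ± 0.17, adjusted p = 3.36e-06) from a high level, with 12.14, 12.20 and 12.01 in cat2-SD2 and 10.36, 10.40 and 10.28 in cat2-LD2.

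Hsp70-2 reached a negative interaction by another route. Its signal was 10.09, 9.51 and 8.79 in Col0-LD2, 8.29, 8.69 and 7.83 in Col0-SD2, 8.54, 8.59 and 8.78 in cat2-SD2, and 7.84, 7.87 and 8.06 in cat2-LD2. The highest group was long-day Col0 rather than short-day cat2, and short-day arrays of both genotypes overlapped. Its interaction was −1.90 ± 0.44 (adjusted p = 0.00861), made of a called rise of 1.19 in Col0 (adjusted p = 0.0122) and a difference of −0.71 in cat2 (adjusted p = 0.128).

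**Figure D2:**
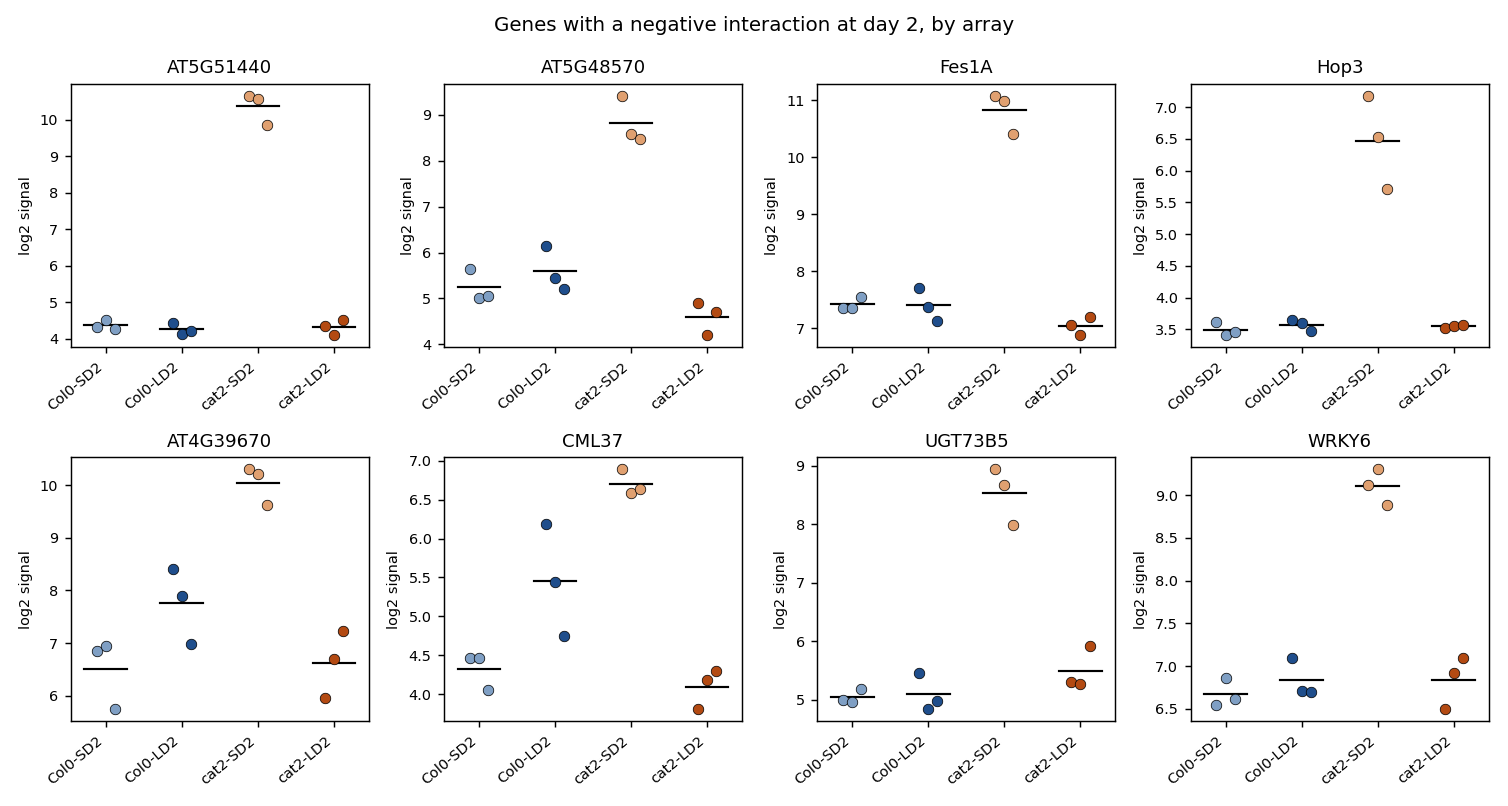
Log2 signal of each array (points, in replicate order from left to right) and group mean (line) at day 2 for 8 genes called negative. In 6 of the panels the other 3 groups lie close together below cat2-SD2, while AT4G39670 and CML37 are also raised in Col0-LD2.

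Genes that mark oxidative stress were next. Of 8 measured, 4 were called negative (3.58% of all probe sets were), 0 were called positive, and the list's median was −2.18. WRKY6, a transcription factor of senescence and defence, read 9.12, 9.30 and 8.88 in cat2-SD2, 6.50, 6.92 and 7.10 in cat2-LD2, 6.54, 6.86 and 6.61 in Col0-SD2, and 7.09, 6.71 and 6.70 in Col0-LD2. Only cat2-SD2 was raised, by 2.43 over Col0-SD2, and its interaction was −2.42 ± 0.24 (adjusted p = 7.93e-07). The zinc finger repressor STZ (also known as ZAT10) had an interaction of −2.55 ± 0.47 (adjusted p = 0.00129) and was lower in cat2-LD2, at 7.15, 7.17 and 7.77, than in any Col0 array (7.92 to 9.03). GSTU25, a glutathione transferase of the tau class, had an interaction of −2.57 ± 0.61 (adjusted p = 0.0112), with a wide spread among the cat2-SD2 arrays at 7.85, 8.02 and 5.61 and a Col0 range of 3.52 to 3.70. Whether those Col0 values stood above background was not tested. AT1G19020, also in this list, had −2.95 ± 0.58 (adjusted p = 0.00241).

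UDP-glycosyltransferases were split. Of 51 measured, 7 were called negative (3.58% of all probe sets) and 1 positive (4.13% of all), and the family's median, −0.03, lay near the 0.03 over all probe sets. The negative members included 4 of the UGT73 group. UGT73B1 read 9.26, 9.31 and 8.75 in cat2-SD2, 6.39, 5.93 and 5.77 in cat2-LD2, 5.17, 5.15 and 4.85 in Col0-SD2, and 4.63, 4.38 and 4.37 in Col0-LD2, so cat2 was above Col0 in both day lengths with a smaller gap in long days. Its interaction was −2.47 ± 0.24 (adjusted p = 5.12e-07). The others were UGT73B5 (−3.08 ± 0.42), UGT73C1 (−2.48 ± 0.30) and UGT73B4 (−1.61 ± 0.36), whose means of 5.49, 4.21 and 3.97 in cat2-LD2 stood beside 5.09, 3.92 and 3.84 in Col0-LD2. Whether such low values stood above background was not tested, so near-equal means there need not be equal transcript levels. UGT73B4 and UGT73B5 are neighbouring and similar genes, and cross-hybridisation between them was not tested. UGT74D1 (−1.53 ± 0.25) and GT72B1 (−0.82 ± 0.19) were also negative. The positive member, UGT72B3 (0.83 ± 0.20, adjusted p = 0.0108), fell by 1.01 with long days in Col0, and its difference in cat2 was −0.18. Among 14 glutathione transferases GSTU25, GSTU22 (−0.96 ± 0.20) and GSTF4 (−0.89 ± 0.26) were called negative (3.58% of all probe sets) and 0 positive. A list of 29 probe sets was matched by CYP gene symbols. It held cytochrome P450s and also the cyclophilins CYP71, CYP59, AT4G33060 and SQN. Of the 29 limma called 0 in either direction, and 3 had an unadjusted p below 0.05 (4917 of all 22746 probe sets did).

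Some calcium and immune genes combined a rise in long-day Col0 with a fall in long-day cat2. CML37, a calmodulin-like calcium sensor, read 6.89, 6.58 and 6.64 in cat2-SD2 and 3.81, 4.18 and 4.3 in cat2-LD2. In Col0 it read 4.46, 4.46 and 4.05 in short days and 6.19, 5.44 and 4.75 in long days. Thus the genotypes moved in opposite directions with day length, without overlap within either genotype. Its interaction was −3.75 ± 0.39 (adjusted p = 1.02e-06), from a called fall of 2.61 in cat2 and a called rise of 1.14 in Col0, and the highest of the Col0-LD2 arrays was replicate 1. CML38 (−1.95 ± 0.32) and the EF-hand protein AT3G01830 (−3.31 ± 0.80, adjusted p = 0.0121) were the other called members of 7 calmodulin-like genes. AT3G01830 is the less certain: its Col0-SD2 arrays ranged from 5.38 to 6.94 and its adjusted p reached 0.0426 in the least favourable of the alternatives tried. Thus 3 of the 7 were called negative, against 3.58% of all probe sets, and the list's median was −0.05. CML41, CML42, AT1G76640 and CML23 had interactions of 0.76, −0.05, 0.26 and 0.44 and were not called.

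Others of the 12 strongest negative genes were AT4G39670, a glycolipid transfer protein family member (−4.67 ± 0.62, adjusted p = 3.30e-05), AT3G22060, a secreted cysteine-rich protein of the receptor-like kinase type (−3.77 ± 0.28, adjusted p = 7.19e-09), and AT1G66090, a TIR-type disease resistance protein (−3.54 ± 0.47, adjusted p = 3.30e-05). In each of these, cat2-SD2 was the highest group and Col0-LD2 the second. AT3G22060 read 9.29, 9.54 and 9.11 in cat2-SD2, 7.48, 7.38 and 6.97 in Col0-LD2, 6.50, 6.54 and 6.58 in cat2-LD2, and 6.33, 6.45 and 6.04 in Col0-SD2. The immune kinase BIK1 was the 1 called gene of 4 in the salicylic acid and defence list (−1.08 ± 0.19, adjusted p = 9.80e-04), against 3.58% of all probe sets called negative. WRKY53, GRX480 and SAG101 had interactions of −1.22, −1.07 and −0.60 with standard errors of 0.68, 0.57 and 0.39 and were not called. All 12 strongest negative genes were called with each array left out and under each alternative that tested them. The filter on dim probe sets, at a mean log2 of 5, left out CML37 and Hop3 (means of 4.53 and 3.96).

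A further pair of probe sets without exactly 1 annotated gene had larger negative values than the named genes, 248332_at (−6.68 ± 0.71, adjusted p = 1.51e-06) and 262911_s_at (−6.06 ± 0.40, adjusted p = 5.09e-10). The first read 11.02, 10.83 and 10.05 in cat2-SD2 and 4.91 to 7.35 in the other 9 arrays, the highest of which was Col0-LD2 replicate 1. The second is read by a probe set assigned to several genes, and read 10.58, 10.45 and 9.77 in cat2-SD2 and 4.35 to 5.42 elsewhere.

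Called members of other lists were few, against the 3.58% of all probe sets called negative, and are given as single genes. All 5 measured sugar starvation genes had an unadjusted limma p below 0.05 (4917 of all 22746 probe sets did). The single called gene among them was MCCA (−1.0 ± 0.21), a subunit of the leucine-degrading methylcrotonyl-CoA carboxylase. The only called member of 9 ATG8 genes, whose products build autophagosomes, was ATG8H (−1.07 ± 0.21). Among 5 endoplasmic reticulum folding genes it was BZIP60 (−1.17 ± 0.31), a regulator of the unfolded protein response. GR1, a glutathione reductase, was the called gene of 6 antioxidant enzymes (−0.75 ± 0.21, adjusted p = 0.0318). It read 8.66, 8.55 and 9.04 in Col0-SD2, 9.84, 9.46 and 9.67 in Col0-LD2, 9.50, 9.32 and 8.99 in cat2-SD2, and 9.48, 9.19 and 9.60 in cat2-LD2. Long days thus raised it in Col0 by 0.91 (adjusted p = 1.95e-04), and its difference in cat2 was 0.16. EXGT-A3, a xyloglucan-modifying cell wall enzyme and 1 of 27 in its family, a share near that of all probe sets, rose in both genotypes, by 1.53 in Col0 and by 0.74 in cat2 (interaction −0.80 ± 0.21, adjusted p = 0.0189). AT1G04770 (SDI2, a gene of sulfur starvation, −1.24 ± 0.34) and the antenna protein gene LHCB4.2 (−0.34 ± 0.10) were called as well.

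Only 5 of 19 listed photorespiratory genes were measured, none of them a glycolate oxidase or a catalase. Of these 5 limma called 0, and 1 had an unadjusted p below 0.05 (4917 of all 22746 probe sets did). That gene was HPR, hydroxypyruvate reductase, with an interaction of −0.38 ± 0.15 (adjusted p = 0.134). Its arrays read 12.86 to 12.89 in cat2-SD2 and 12.27 to 12.54 in the other 9. The glycine decarboxylase subunits AT1G32470 and AT1G11860 and the chloroplast glycolate and glycerate transporter LrgB (also known as PLGG1) had interactions of 0.10, −0.12 and 0.15 with standard errors of 0.17 to 0.20. Among antioxidant enzymes, the 2-Cys peroxiredoxin AT3G11630, the organellar glutathione reductase GR, the monodehydroascorbate reductase ATMDAR2 and the thylakoid ascorbate peroxidase TAPX had 0.20, −0.12, −0.22 and −0.02 and were not called. The 1 clock gene measured, GI, had −0.18 ± 0.24, and the 1 day length gene measured, AT1G69570, had 0.02 ± 0.19.

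Cold and dehydration genes responded to day length in both genotypes. All 4 measured genes of this list (LTI30, COR47, COR15A and COR15B, named after their values were seen) fell with long days in both genotypes, with a median of −1.90 in cat2 (7.36% of all probe sets fell) and −1.97 in Col0 (5.67% fell). Their interactions ran from −0.04 to 0.71, limma called 0, and 1 had an unadjusted p below 0.05. Of 4 anthocyanin genes 0 were called and 0 had an unadjusted p below 0.05, and of 43 plastid-encoded photosynthesis genes 0 were called and 6 had one. Over all 22746 probe sets 4917 had an unadjusted p below 0.05 for this interaction.

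The positive side was built of smaller changes, and many of its leading genes serve protein synthesis. Of the 12 strongest, 4 code for cytosolic ribosomal proteins and 2 for ribosome biogenesis factors. AT1G23100, a GroES-type chaperonin, led with an interaction of 1.76 ± 0.27 (adjusted p = 2.06e-04). It read 4.80, 4.56 and 5.15 in cat2-SD2, 5.74, 5.44 and 6.09 in cat2-LD2, 5.60, 5.82 and 5.99 in Col0-SD2, and 4.59, 5.11 and 5.20 in Col0-LD2. The same pair of groups, Col0-SD2 and cat2-LD2, was therefore high, and the other pair low, with no overlap between the pairs. AT5G02050, of the mitochondrial glycoprotein family, followed the same form (1.52 ± 0.22, adjusted p = 8.41e-05), with 7.37 to 7.58 in cat2-SD2, 7.24 to 7.69 in Col0-LD2, 7.90 to 8.20 in cat2-LD2 and 8.30 to 8.72 in Col0-SD2. AT2G23910, related to cinnamoyl-CoA reductases, reached 1.60 ± 0.35 through a fall of 2.01 in Col0, while its difference in cat2 was −0.42 and not called.

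Among the ribosomal genes, AT2G32220 (RPL27 family) read 6.55, 6.63 and 6.86 in cat2-SD2, 7.41, 7.92 and 7.78 in cat2-LD2, 7.82, 7.66 and 7.64 in Col0-SD2, and 6.71, 7.37 and 7.23 in Col0-LD2. The cat2-SD2 arrays did not overlap cat2-LD2 or Col0-SD2, whereas Col0-LD2 replicate 1 fell among the cat2-SD2 values and its other replicates did not. The interaction was 1.62 ± 0.34 (adjusted p = 0.00375). AT1G07070 (RPL35A family, 1.56 ± 0.39) and AT4G10450 (RPL9 family, 1.41 ± 0.32) were also among the 12. AT3G57490 (RPS2 family, 1.40 ± 0.26, adjusted p = 0.00170) read 7.90, 7.84 and 8.43 in cat2-SD2, below the other 9 arrays, which ran from 8.52 to 9.26. Without Col0-LD2 replicate 1 the adjusted p of AT1G07070 rose to 0.0603, of AT3G59670 to 0.0548 and of AT3G61100 to 0.0526. The other 9 of the 12 were called in every alternative.

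Of 224 cytosolic ribosomal protein genes listed, 131 were read by a single-gene probe set, and 72 of these (55%) were called positive, against 4.13% of all probe sets, with 0 called negative. The list was written after its leading members had been seen, so the count is a description. The interaction was above 0 in 127 of the 131, ran from −0.03 to 1.62 and had a median of 0.76, against 0.03 over all probe sets. The small subunit had 23 of 48 called (median 0.73) and the large subunit 49 of 83 (median 0.77). In 41 of the 59 measured protein families at least 1 gene was called and in 20 every measured gene was, such as RPL35 (4 of 4), RPS14 (3 of 3) and RPP1 of the ribosomal stalk (3 of 3). Within families the paralogs differed: in RPS15 1 of 5 was called, with interactions from −0.01 to 0.91, and in RPP2 3 of 5, from 0.00 to 1.21. Members of a family are similar in sequence, and although none of these probe sets is one that the array design marks as shared between genes, cross-hybridisation was not tested.

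Averaged over the 131 probe sets after centring each on its mean over the 12 arrays, the level was −0.39, −0.31 and −0.16 in cat2-SD2, 0.17, 0.34 and 0.32 in cat2-LD2, 0.15, 0.06 and 0.07 in Col0-SD2, and −0.26, −0.03 and 0.04 in Col0-LD2. All 3 cat2-SD2 arrays were below all of cat2-LD2 and Col0-SD2. In Col0 the long-day arrays lay below the short-day ones, replicate 1 the furthest. In cat2 long days raised 95 of the 131 (8.76% of all probe sets rose), and in Col0 they lowered 5 (5.67% fell). In short days 34 were lower in cat2 than in Col0 (7.56% of all were), and in long days 1 was higher (0.541% of all). The median cat2-minus-Col0 difference was −0.36 in short days and 0.38 in long days, where 123 of the 131 were above 0. At an unadjusted limma p below 0.05, 71 were lower in short days and 88 higher in long days. The share of all probe sets at that threshold was not counted, so these counts have no baseline.

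The number of ribosomal calls moved with single arrays more than their median did. It was 19 without Col0-LD2 replicate 1, 23 without cat2-SD2 replicate 1, 27 without cat2-LD2 replicate 2, 30 without cat2-SD2 replicate 2, 31 without cat2-LD2 replicate 3, 33 without Col0-SD2 replicate 1 and 41 without Col0-SD2 replicate 2, at 1.98% to 3.07% of all probe sets. Over all 12 such fits the median stayed between 0.66 and 0.83 and at least 123 of 131 were above 0. The 25S ribosomal RNA control probe set of the array was higher in cat2 (means of 7.56 in short and 7.27 in long days) than in Col0 (6.70 and 6.67). Its own interaction was −0.25. With the 25S signal as a covariate the median of the ribosomal protein genes was 0.78, and 71 were called.

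**Figure D3:**
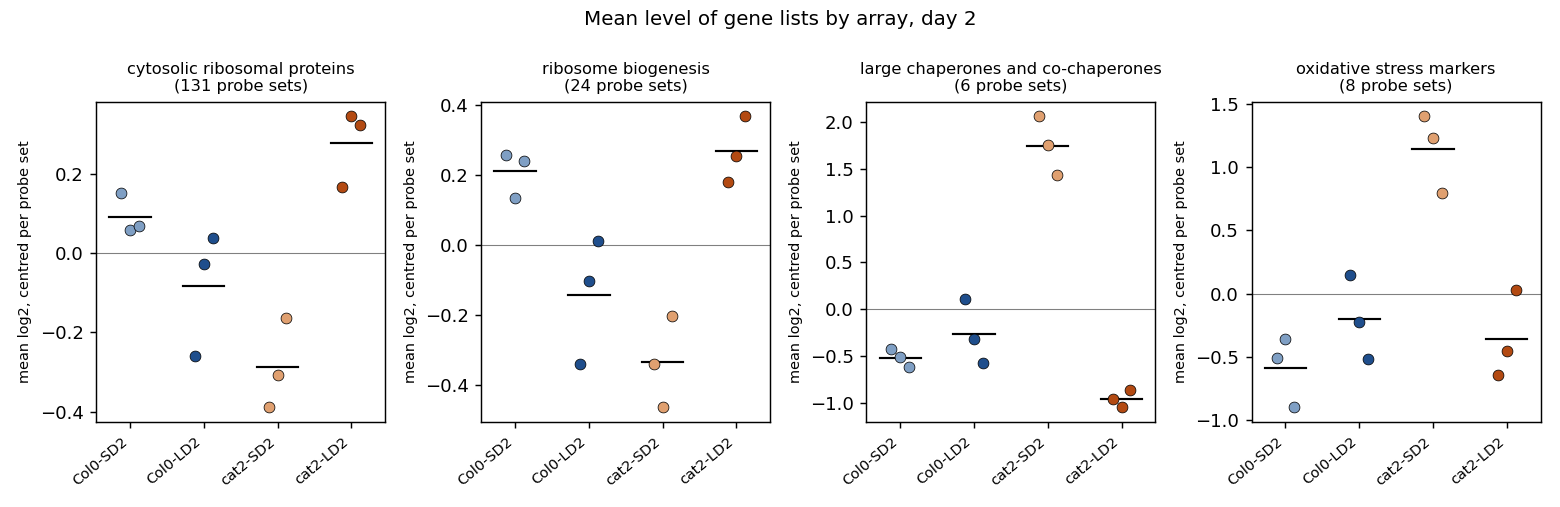
Mean log2 level of 4 gene lists in each of the 12 arrays (points, in replicate order) and group means (lines), after each probe set was centred on its mean over the 12 arrays; the y axes differ in range. The ribosomal lists are lowest in cat2-SD2 and the chaperone and oxidative stress lists are highest there, and Col0-LD2 replicate 1 lies furthest toward cat2-SD2 among the Col0-LD2 arrays in all 4 panels.

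Ribosome biogenesis genes, whose products process rRNA and assemble the subunits in the nucleolus, had larger values. Of 45 listed 24 were measured, and 18 (75%) were called positive, against 4.13% of all probe sets, and 0 negative. All 24 were above 0, and the median was 1.05. The count was 15 to 18 with any one array left out. AT5G20160, an L7Ae-type RNA-binding protein, read 10.13, 10.15 and 10.38 in cat2-SD2, 11.20, 11.37 and 11.47 in cat2-LD2, 10.96, 10.95 and 10.94 in Col0-SD2, and 10.56, 10.83 and 10.96 in Col0-LD2. Here cat2-SD2 was the lowest group and cat2-LD2 the highest, and neither overlapped another. Its interaction was 1.29 ± 0.20 (adjusted p = 2.62e-04). AT4G12600, of the same protein type, had 1.58 ± 0.32 (adjusted p = 0.00334) and the DEAD-box RNA helicase AT3G18600 1.47 ± 0.35 (adjusted p = 0.0117). The Brix-domain protein AT1G52930 had 1.41 ± 0.35, the KH-domain protein AT3G13230 1.40 ± 0.25 and AT3G03920, a GAR1-type protein involved in RNA pseudouridylation, 1.38 ± 0.29. This list, too, was written after leading members had been seen.

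**Figure D4:**
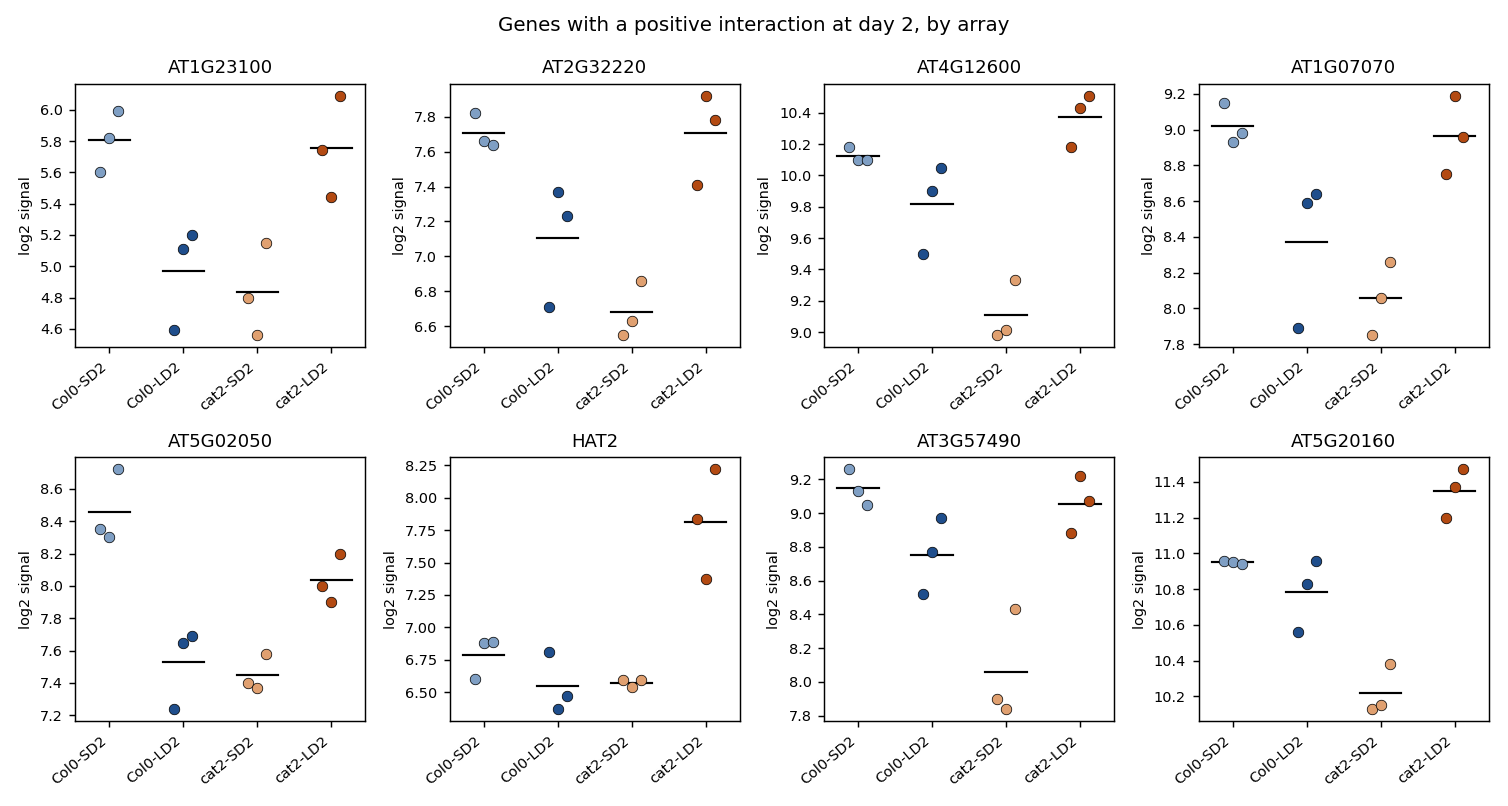
Log2 signal of each array (points, in replicate order) and group mean (line) at day 2 for 8 genes called positive. cat2-SD2 has the lowest mean in 7 of the panels, while HAT2 is raised in cat2-LD2 alone.

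HAT2, a homeodomain-leucine zipper transcription factor that responds to auxin and shade, differed in form. It read 7.84, 7.37 and 8.22 in cat2-LD2, 6.60, 6.88 and 6.89 in Col0-SD2, 6.81, 6.37 and 6.47 in Col0-LD2, and 6.59, 6.54 and 6.59 in cat2-SD2. Only long-day cat2 stood above the rest, and Col0-LD2 overlapped both short-day groups. The interaction was 1.48 ± 0.27 (adjusted p = 0.00112). Larger still was 254818_at, a probe set not listed with a gene, at 3.24 ± 0.37 (adjusted p = 4.36e-06). It read 11.65, 11.22 and 11.75 in cat2-LD2, 8.12, 7.88 and 8.36 in Col0-LD2, 6.50, 5.82 and 7.15 in cat2-SD2, and 6.03, 6.85 and 6.05 in Col0-SD2, so long days raised it in both genotypes and by more in cat2. The next such probe set, 254080_at, had 2.26 ± 0.45 (adjusted p = 0.00241) and the group order of the ribosomal genes.

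CC-type glutaredoxins, small plant oxidoreductases, had 2 of 17 called positive (4.13% of all probe sets) and 1 negative (3.58% of all). AT4G15700 read 6.22, 6.21 and 5.67 in cat2-SD2, 7.83, 7.89 and 7.59 in cat2-LD2, 7.24, 7.42 and 7.70 in Col0-SD2, and 7.76, 7.81 and 7.85 in Col0-LD2. cat2-SD2 was alone at the bottom, and the interaction was 1.38 ± 0.34 (adjusted p = 0.0123). Its neighbour AT4G15660 had 1.17 ± 0.34 (adjusted p = 0.0328), while AT4G15680 and AT4G15690 had 1.49 ± 0.52 and 1.11 ± 0.35 and missed the threshold (adjusted p = 0.0818 and 0.0535). These 4 are near-identical tandem copies whose probe sets may share signal, which was not tested. AT2G30540 was negative (−0.90 ± 0.25, adjusted p = 0.0295).

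The same interaction was measured at day 4 in 12 other arrays. There 196 probe sets were called (0.862%), 11 positive (0.0484%) and 185 negative (0.813%). Of the negative ones 110 were also called negative at day 2, which is 13.5% of the day 2 set and 59.5% of the day 4 set. Of the positive ones 5 were shared, 0.532% of the day 2 set and 45.5% of the day 4 set. The interaction at day 4 was below 0 for 75.6% of the day 2 negative probe sets (46.7% of all) with a median of −0.21, and above 0 for 69.6% of the positive ones (53.3% of all) with a median of 0.13. At day 4 the cytosolic ribosomal proteins had a median of 0.31, with 125 of 131 above 0, 0 called by limma and 10 with an unadjusted p below 0.05. The ribosome biogenesis genes had a median of 0.49 with 0 called and 9 with an unadjusted p below 0.05. How many of all probe sets had an unadjusted p below 0.05 at day 4 was not counted, so both unadjusted counts lack a baseline.

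**Figure D5:**
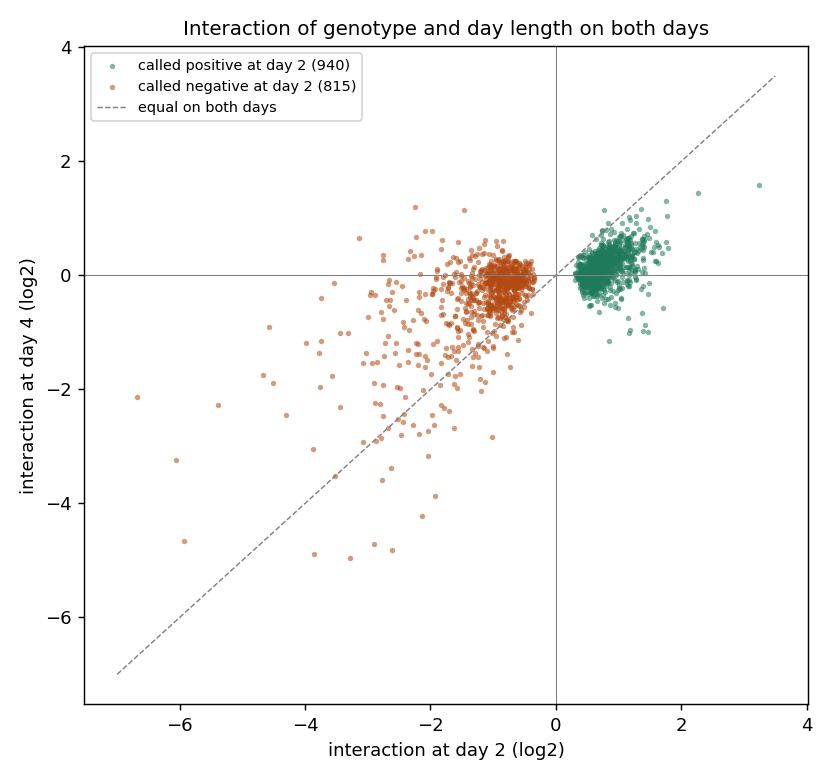
Interaction at day 2 (x axis, log2) against day 4 (y axis, log2) for the probe sets called at day 2, with the dashed line of equal values. The negative probe sets have a median of −0.21 and the positive ones of 0.13 at day 4, and the days share no array.

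AT5G51440 was also called at day 4, at −4.66 (adjusted p = 3.91e-11), with 9.20, 8.90 and 9.14 in cat2-SD4 and 4.07 to 4.80 in the other 9 day 4 arrays. Others had a larger value at day 4. The bHLH gene AT1G10585 had −2.62 at day 2 and −4.82 at day 4, and the alkenal reductase relative AT5G16980 −1.26 (not called) and −3.38. AT1G09500, a relative of cinnamyl alcohol dehydrogenases, had −2.62 and −3.38. The difference between these days was not called for AT1G10585 or AT5G16980 (adjusted p = 0.224 and 0.149). UGT73B1 (−2.79) and AT2G29500 (−2.86) had day 4 values near those of day 2. On the positive side the 4 leading genes at day 4 were ATPMEPCRB, a pectin methylesterase (1.92), the mitochondrial elongation factor AT4G02930 (0.92), the polyribonucleotide nucleotidyltransferase AT5G14580 (0.84) and AT3G49320 (0.79), of which AT4G02930 and AT3G49320 were also called at day 2.

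The test of the difference between the days called 91 probe sets (0.4%), 45 positive (0.198%) and 46 negative (0.202%). Among them were 4 of the 6 large chaperones: AT5G48570 (day 2 minus day 4 of −3.67, adjusted p = 0.0376), Fes1A (−1.80, adjusted p = 0.0215), Hop3 (−2.28, adjusted p = 0.0417) and AT3G09440 (−1.20, adjusted p = 0.0250). CML37 went from −3.75 to −0.39 (difference adjusted p = 0.00944), and AT1G66090 from −3.54 to −0.14 (adjusted p = 0.0217). AT3G02840, an armadillo-repeat protein of elicitor responses, went from −2.67 to −0.08 (adjusted p = 0.0258). The glutaredoxins AT4G15680, AT4G15690, AT4G15700 and AT4G15660 had estimates of opposite sign at these days. Their interactions were 1.49, 1.11, 1.38 and 1.17 at day 2 and −2.05, −1.38, −0.98 and −1.02 at day 4. The differences were 2.19 to 3.54 (adjusted p of 0.0250 to 0.0367). None of the 4 was called at day 4 (limma adjusted p = 0.0642, 0.0697, 0.264 and 0.24). Only AT4G15700 and AT4G15660 were called at day 2, and the copies may share signal. For AT4G15700 the highest day 4 group was Col0-LD4, at 8.20, 8.22 and 7.62, against 6.19 to 7.25 in the short-day groups and 6.99 to 7.90 in cat2-LD4. The count of 91 was unstable: it was 31 to 60 without any one of 13 of the 24 arrays, 137 without cat2-LD4 replicate 1, 170 without Col0-SD4 replicate 3 and 365 without Col0-LD4 replicate 3.

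Few probe sets separated the genotypes before the move to air. The source label of these Col0 arrays gives a lower CO2 level than the growth protocol, and the 3000 ppm of the protocol is used here. Between cat2 and Col0 at 3000 ppm CO2 3 probe sets were called (0.0132%), 2 higher (0.00879%) and 1 lower (0.0044%) in cat2. The probe sets that were negative at day 2 had a median cat2-minus-Col0 difference of −0.08 there and the positive ones 0.08, against 0.02 over all. AT5G51440 read 3.86 to 4.2 in cat2 and 3.97 to 4.44 in Col0 at high CO2, and Fes1A 7.11 to 7.25 and 7.13 to 7.20, so neither was raised in the mutant before the transfer.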

How the data were processed

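Leaf RNA was measured on 30 Affymetrix ATH1 arrays, 3 for each of 10 groups, of which 12 enter the day 2 comparison. The submitters' processing notes name RMA and affy, whose versions are not stated there, as what the authors used to make the deposited log2 values. RMA sets all arrays to 1 distribution of signal, so a shift of all transcripts together cannot be seen. Groups were taken from the sample titles. Control probe sets were set aside, and group means of 22746 probe sets were fitted over all 30 arrays with limma 3.58.1 (R 4.3.3), with eBayes and Benjamini-Hochberg adjustment over all probe sets. A call is an adjusted p below 0.05. The fit was tested on simulated data of 22746 probe sets. Of 50 probe sets changed at each size it recovered 23 at 1.5-fold, 42 at 2-fold, 49 at 4-fold and 50 at 8-fold, with 7 false calls among the unchanged ones. The simulated noise was drawn independently for each probe set and array, without shifts shared by the probe sets of an array. These rates therefore need not hold for the measured arrays.

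The platform annotation gave 13513 probe sets exactly 1 gene, 503 several and 8730 none listed, and 13484 of the first matched a locus of the RefSeq table of assembly TAIR10.1. Named genes are the 12 single-gene probe sets with the largest called interaction in each direction, up to 2 without a single gene, called members of gene lists (at most 6 a direction), up to 4 uncalled members of the lists nearest to the design, and the 4 largest in each direction at day 4 and between the days. The members and lists were chosen with earlier results of these data known, and the ribosomal lists were added after values were seen. The values of 1 gene that this rule names are not reported here. Alternatives covered the arrays fitted, the replicate block, scaling, a filter on dim probe sets, the variance model, array weights, 3 covariates and leaving out each array. Arrays have no read depth, and the number of arrays limits the precision. Tables and figures were made with Python 3.11.15, pandas 2.3.3, numpy 2.4.6 and matplotlib 3.10.9.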

Additional observations from a re-analysis of the deposited data

Results flagged for a closer look

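The long-minus-short-day difference itself differed between the genotypes at 1755 probe sets at day 2, and this interaction differed between day 2 and day 4 at 91, both by the contrast in the limma fit at an adjusted p below 0.05. Among the named genes and probe sets, day 2 minus day 4 was negative for 248332_at (−4.56), AT5G48570 (−3.67), AT1G66090 (−3.40), CML37 (−3.35), 262911_s_at (−2.82), AT3G02840 (−2.59), AT3G22060 (−2.40), Hop3 (−2.28), Fes1A (−1.80), WRKY6 (−1.51) and AT3G09440 (−1.20). It was positive for the glutaredoxins AT4G15680 (3.54), AT4G15690 (2.49), AT4G15700 (2.36) and AT4G15660 (2.19). AT4G10270, a wound-responsive family protein, had 2.53 from an interaction of 0.56 at day 2 and −1.97 at day 4. Of the 12 day 4 arrays, Col0-LD4 replicate 3 had the lowest BioB (7.87) and 25S (5.50) and the highest actin 3 prime minus 5 prime (1.11) control values on the log2 scale, and the count of 91 was 365 without it.

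Outside the main measurement, the 25S ribosomal RNA control probe set averaged 0.73 higher (0.731, log2) in cat2 than in Col0 over both day lengths at day 2. Its ranges were 6.96 to 8.09 in cat2-SD2, 7.18 to 7.40 in cat2-LD2, 6.24 to 7.13 in Col0-SD2 and 6.44 to 7.00 in Col0-LD2, so the genotypes overlapped in short days.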

How the results depend on the processing

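No called value of a named gene changed sign at day 2 in any alternative run. With single arrays left out, 1063 of 1140 values kept their side of the threshold, 74 lost the call and 3 gained it, and under the other alternatives 1102 of 1124 kept it. For day 2 minus day 4, 117 of 312 values lost the call with an array left out and 39 of 153 under the other alternatives. With only the arrays compared in the fit, the day 2 interaction had 2796 calls (1430 positive, 1366 negative), 110 of them ribosomal protein genes, and the genotypes in long days 486. A replicate block with only the arrays compared gave 3002 calls (1463 positive, 1539 negative), 114 ribosomal protein genes, 524 for the genotypes in long days, 112 for the interaction at day 4 and 24 for the days' difference. Between day 2 arrays of equal replicate number, 18 residual correlations ran from −0.327 to 0.385, with 5 over 0.1. Arrays of unequal number were not compared, so whether replicate numbers pair the arrays was not tested. The replicate block in the fit of 30 arrays gave 1782 calls for the day 2 interaction. Array weights, whose estimation did not converge, gave 2745 (1513 positive, 1232 negative), 4146 for day length in Col0, 663 for the genotypes in long days, 251 for the days' difference and 7694 for the genotypes at high CO2. The BioB covariate gave 1634 for day length in Col0, 676 for the genotypes in long days and 226 for the days' difference, and the actin covariate 52 for the last. The 25S covariate gave 1897 for the genotypes in short days and 132 in long days. With 1 probe set per gene, fewer being tested, counts were 896 (546 positive, 350 negative), 1882 and 1319 for day length in cat2 and Col0, 1717 and 113 for the genotypes in short and long days, 80 at day 4 and 35 between the days. Leaving out single arrays, which leaves fewer samples, gave 939 to 1738 calls (450 to 928 positive, 482 to 810 negative), 19 to 68 ribosomal protein, 15 to 18 ribosome biogenesis and 6 chaperone genes. It gave 2281 to 3429 and 1606 to 2196 for day length in cat2 and Col0, 1707 to 2864 and 89 to 282 for the genotypes in short and long days, 132 to 274 at day 4 and 31 to 365 between the days. The cause of the other shifts was not tested. Centring each array moved the median of all interactions from 0.03 to 0.09. The planned search of promoters for motifs was not run, as promoter sequences were not used here.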
